A study of Mus musculus with 14 samples.

Results

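The T cell receptor complex and its proximal kinases were followed through 9 genes in skin regulatory T (Treg) cells and hair follicle stem cells (HFSC) of the mouse. The genes were chosen by symbol, Cd3e, Cd3d, Cd3g, Cd247, Cd4, Lck, Zap70, Lat and Themis, and all 9 had a row among the 24537 gene symbols of each expression table. Skin Treg cells were sampled 1 day after the hair was depilated, a step that starts a new hair cycle, in 3 GR WT libraries and 5 GR KO libraries. HFSC, sorted as CD34+ITGA6high cells, were sampled 4 days after depilation in 3 libraries of each genotype. GR KO stands for Foxp3YFP-Cre GRfl/fl mice, in which the Foxp3 gene drives Cre so that the floxed glucocorticoid receptor gene is deleted in Foxp3-expressing cells. Controls are called WT in the labels, and all mice of both genotypes were depilated. In the HFSC comparison the sorted cells themselves are not the target of the deletion. Nothing in the labels says that replicates came from separate mice. The p-values therefore measure the spread between these libraries, which may be technical.

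The receptor that recognises antigen carries no signalling tail of its own. It depends on the CD3 gamma, delta and epsilon chains and on the zeta chain encoded by Cd247, whose tyrosine motifs are phosphorylated by the kinase Lck, brought close by the coreceptor CD4. The kinase Zap70 then binds these motifs and phosphorylates the adaptor Lat, from which calcium, Ras and NF-kB signals branch. Themis binds phosphatases near the receptor and tunes its signal during T cell development. Treg cells use this pathway like other CD4+ T cells, and receptor signalling supports their function in tissues.

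Expression is given as TPM, a transcript abundance scaled by length and library size that can be compared between genes. Whole sequencing tags could be recovered from TPM and length, and gave 9.17e+06 to 1.45e+07 tags per Treg library and 4.50e+06 to 7.99e+06 tags per HFSC library. Nr3c1, the targeted gene, ranged from 106 to 171 TPM in Treg GR KO and from 170.5 to 233 TPM in Treg GR WT. The groups overlapped for this gene, and its lower level in KO did not pass the threshold in the main fit (log2 fold change -0.71, limma adjusted p = 0.0722, and 0.0191 to 0.276 over the alternatives). Which exons the floxed allele loses is not stated in the labels. The labelled cell types carried their markers: Foxp3 averaged 192 TPM and Ctla4 5243 TPM in Treg libraries, and the summed level of 10 keratinocyte and HFSC markers was 17182 to 27595 TPM in HFSC libraries. Those 10 markers summed to 398 to 687 TPM in Treg WT and 31.4 to 122 TPM in Treg KO libraries, with up to 3 of the 10 at 0 in a KO library and none at 0 in WT. Of these markers 6 of 8 tested fell in Treg KO, where 1.31% of all genes tested fell. Among macrophage and monocyte markers 4 of 10 fell, with summed levels of 208 to 372 TPM in WT and 64.2 to 178 TPM in KO. Neutrophil markers summed to 75.7 to 325 TPM in WT and 0 to 20.8 TPM in KO, and 2 of 3 tested fell. Over all marker lists 15 genes were called, and 3 without WT replicate 1 or without WT replicate 3. Fibroblast markers summed to 101 to 178 TPM in WT and 20.5 to 98.9 TPM in KO. Of these 5 genes, limma called 0, against 1.51% of all genes tested, and voom called 0. An unadjusted limma p under 0.05 was reached by 4 of the 5, against 14.1% of all genes tested.

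The CD3 genes lie together on chromosome 9 in mm10, within 40019 bases. Cd3g (NM_009850, chr9:44969572-44980431, minus strand) and Cd3d (NM_013487, chr9:44981786-44987052, plus strand) are transcribed away from each other from starts 1354 bases apart, and Cd3e (NM_007648, chr9:44998743-45009590, minus strand) lies next to them. Their promoters are shown because Cd3g and Cd3d varied together across the Treg libraries while Cd3e did not. Both starts of Lck are shown because Lck was the only member above 1.07 TPM in any HFSC library. Each sequence runs 5′ to 3′ on the gene's strand, from 250 bases before to 50 bases after the start in RefSeq (GRCm38.p6, the assembly behind mm10). The RefSeq start of Cd3e lies 21 bases upstream of that of the deposited transcript, and the other 4 starts include the deposited ones of Cd3g, Cd3d and Lck. Capitals mark matches on either strand to the ETS core GGAAGT, the RUNX core TGTGGT and AGAACA, which is 1 arm of the glucocorticoid response element.
Cd3g, chr9:44980382-44980681, minus strand: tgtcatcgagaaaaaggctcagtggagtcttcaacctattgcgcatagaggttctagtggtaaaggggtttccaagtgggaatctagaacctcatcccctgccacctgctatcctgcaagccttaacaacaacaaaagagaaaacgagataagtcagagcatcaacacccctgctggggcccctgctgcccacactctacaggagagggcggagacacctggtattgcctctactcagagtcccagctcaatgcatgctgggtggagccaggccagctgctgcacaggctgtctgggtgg
Cd3d, chr9:44981536-44981835, plus strand: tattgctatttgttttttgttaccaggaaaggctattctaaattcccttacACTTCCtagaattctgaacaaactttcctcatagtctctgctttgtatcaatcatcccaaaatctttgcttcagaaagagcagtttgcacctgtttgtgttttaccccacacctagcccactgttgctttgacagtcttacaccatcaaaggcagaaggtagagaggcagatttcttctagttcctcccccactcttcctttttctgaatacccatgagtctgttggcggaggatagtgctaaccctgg
Cd3e, chr9:45009562-45009861, minus strand: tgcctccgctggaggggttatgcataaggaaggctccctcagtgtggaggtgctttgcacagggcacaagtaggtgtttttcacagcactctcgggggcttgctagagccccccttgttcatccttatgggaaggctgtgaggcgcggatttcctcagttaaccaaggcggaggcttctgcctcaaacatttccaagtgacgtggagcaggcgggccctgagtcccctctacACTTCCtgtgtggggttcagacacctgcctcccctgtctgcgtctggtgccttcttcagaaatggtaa
Lck, start of the deposited transcript, chr4:129573592-129573891, minus strand: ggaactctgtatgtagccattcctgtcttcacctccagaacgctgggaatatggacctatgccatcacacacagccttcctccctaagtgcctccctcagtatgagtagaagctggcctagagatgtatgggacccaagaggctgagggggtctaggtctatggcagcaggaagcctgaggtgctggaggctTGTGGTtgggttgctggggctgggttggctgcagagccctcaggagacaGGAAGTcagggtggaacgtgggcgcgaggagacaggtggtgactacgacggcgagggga
Lck, downstream start, chr4:129558323-129558622, minus strand: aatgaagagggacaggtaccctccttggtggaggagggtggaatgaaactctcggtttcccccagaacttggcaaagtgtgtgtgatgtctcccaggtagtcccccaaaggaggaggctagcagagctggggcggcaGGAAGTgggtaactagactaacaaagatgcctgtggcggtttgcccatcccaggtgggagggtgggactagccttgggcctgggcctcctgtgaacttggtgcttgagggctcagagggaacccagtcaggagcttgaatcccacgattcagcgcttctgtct

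The table of promoters held 12 starts for 8 members, and Cd4 had no entry. None of the 12 held the full glucocorticoid response element (AGAACA, any 3 bases, then TGTTCT), which 3 of 32851 promoters of the same length held (0.00913%). The single arm AGAACA, which the full element contains, occurred at 3 starts, of Cd247 and Themis, and in 18.97% of all promoters. The ETS core was found at 6 of 12 starts, among them those of Cd3d and Cd3e but not Cd3g, against 23.8% of all promoters. The RUNX core was found at 3 starts, of Lck, Zap70 and Lat, against 16.8%, and an E-box (CANNTG), left in lower case, at all 12 against 72.3%. Several starts belong to the same gene and 2 of Themis overlap, so these counts are not independent. A match here is a string of letters in a window and not a binding site.

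All 9 genes were expressed in every Treg library, and none differed between GR KO and GR WT at an adjusted p of 0.05. The test was limma on log2(TPM + 1) over the 11579 genes that averaged 1 TPM or more, of which 1.51% were called (0.199% higher and 1.31% lower in KO). Cd3g and Lat had an unadjusted p under 0.05 (2 of 9, against 14.1% of all genes), and voom on the recovered tags also called 0 of 9. Every estimate lay above 0, from 0.06 to 0.31 with a median of 0.16 on the log2 scale, while 44.2% of all genes tested lay above 0 and their median was -0.04. The 95% intervals ran from -0.25 at the lowest bound (Zap70) to 0.64 at the highest (Themis), so none of them reached a 2-fold change in either direction. KO and WT libraries overlapped for all 9 genes, whereas 8.52% of the genes tested had no overlap. Summed over the 9 genes, the level was 3240.2, 3076 and 2830 TPM in the WT libraries and 3353 to 3673 TPM in the KO libraries. These sums did not overlap between genotypes, and Cd3g is their largest part.

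**Figure D1:**
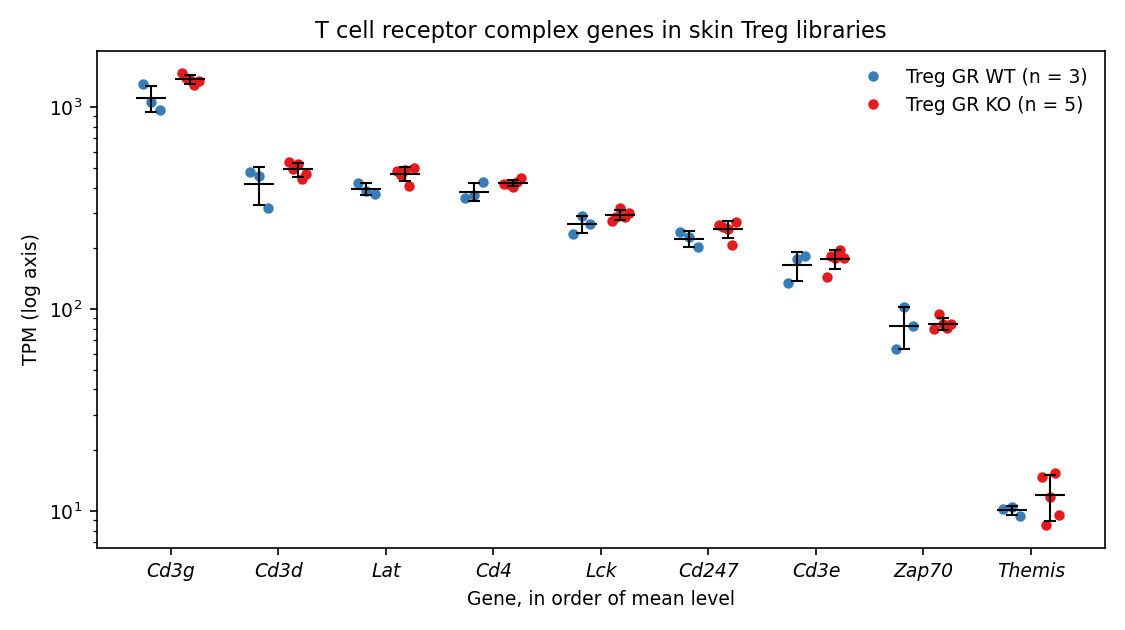
TPM of the 9 genes in each Treg library on a log axis, with GR WT (n = 3) in blue and GR KO (n = 5) in red. Bars are the mean with the SD. Cd3g stands at 974 TPM or higher in every library and Themis below 16 TPM, and the 2 groups overlap for each gene.

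The CD3 gamma gene Cd3g was the most abundant member. It stood at 1299.7, 1064 and 974 TPM in the WT libraries (replicates 1 to 3) and at 1471, 1399.6, 1367, 1290.4 and 1341 TPM in the KO libraries (replicates 1 to 5). Of the KO libraries, replicate 4 alone fell below WT replicate 1, and the other 2 WT libraries lay below all KO libraries. Cd3g averaged 1374 ± 67.5 TPM across KO and 1112 ± 168 TPM across WT libraries (SD, n = 5 and 3, as for the other members), a log2 fold change of 0.31 (SE 0.10, 95% interval 0.09 to 0.54, limma adjusted p = 0.197, and 0.0605 to 0.509 over the alternatives). Without WT replicate 1 the log2 fold change was 0.43.

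Cd3d, which encodes the delta chain, was at 478, 457 and 316 TPM in WT and at 535, 493, 526, 441 and 468 TPM in KO. WT replicate 3 was low and the other 2 WT libraries lay within the KO range. Cd3d averaged 493 ± 39.5 TPM across KO and 417 ± 88.3 TPM across WT libraries (log2 fold change 0.26, SE 0.13, limma adjusted p = 0.417). Without WT replicate 3 the estimate was 0.07. Cd3e, the epsilon chain gene, was at 134, 177 and 183 TPM in WT and at 145, 184, 179.6, 197 and 180.0 TPM in KO. Its lowest libraries were replicate 1 of each genotype, and the estimate of KO over WT was 0.11 on the log2 scale (SE 0.13, limma adjusted p = 0.758). Genes on the opposite strand overlap Cd3e (Gm48719), Cd247 and Themis in the GENCODE M21 annotation. Whether counting used the strand is not given in the sources used here. On the same strand, Gm48720 overlaps Cd3e, Gm16565 overlaps Cd247, and microRNA genes overlap Lck (Mir8119) and Lat (Mir7058). The part of overlapping genes in these levels was not tested.

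Cd247 (NM_001113391, chr1:165788681-165862112, plus strand) encodes the zeta chain, which holds most of the complex's tyrosine motifs. It was at 241, 228 and 202 TPM in WT and at 260.2, 255, 249, 208 and 270.4 TPM in KO. KO replicate 4 lay within the WT range and the other 4 KO libraries above it. The estimate of KO over WT was 0.15 on the log2 scale (SE 0.10, limma adjusted p = 0.557).

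**Figure D2:**
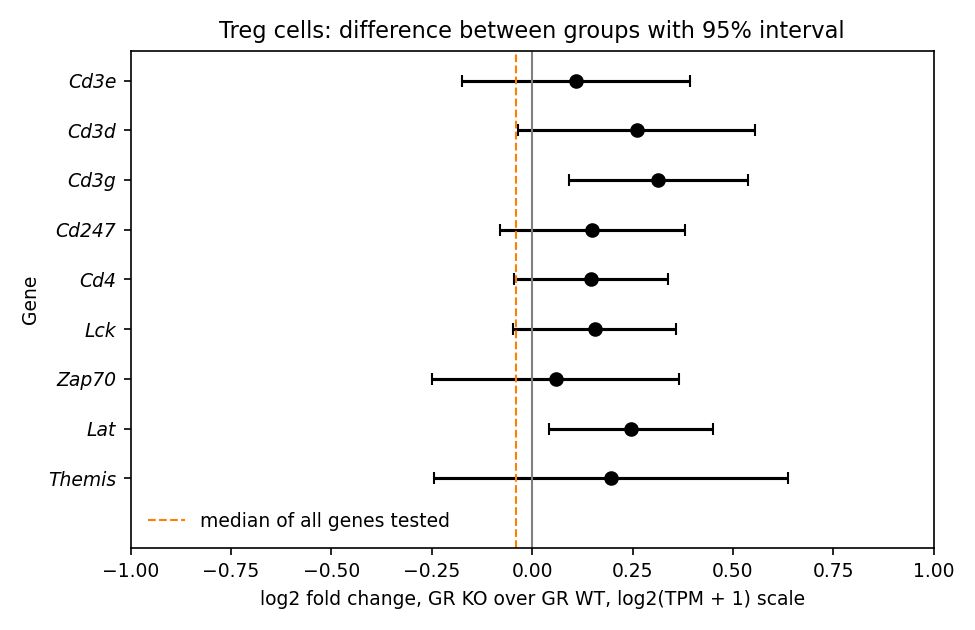
Log2 fold change of each gene in Treg cells, GR KO over GR WT, on the log2(TPM + 1) scale, with its 95% limma interval. The solid line is 0 and the dashed line is the median of all genes tested (-0.04). The estimates of all 9 genes lie between 0.06 and 0.31, and the intervals of Cd3g and Lat lie above 0 before adjustment for the number of genes.

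Cd4 (NM_013488, chr6:124864693-124888209, minus strand), the coreceptor gene, had the smallest spread among the KO libraries, with a coefficient of variation of 3.91%. It was at 353, 366 and 425 TPM in WT and at 415, 414.5, 403, 427 and 447 TPM in KO. WT replicate 3 lay inside the KO range and the other 2 WT libraries below it. Cd4 averaged 421 ± 16.5 TPM across KO and 382 ± 38.2 TPM across WT libraries (log2 fold change 0.15, SE 0.09, limma adjusted p = 0.488).

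Lck (NM_001162433, chr4:129548344-129573641, minus strand), the kinase that starts the cascade, was at 237, 289 and 265 TPM in WT and at 272, 287, 318, 287 and 301 TPM in KO. WT replicate 2 lay inside the KO range, and the estimate was 0.16 on the log2 scale (SE 0.09, limma adjusted p = 0.488). Zap70, the second kinase, was at 63.3, 102 and 82.8 TPM in WT and at 79.6, 94.8, 84.0, 80.8 and 84.3 TPM in KO. Its WT libraries held both the lowest and the highest of the 8 values, and the estimate was 0.06 on the log2 scale (SE 0.14, limma adjusted p = 0.897). The deposited Zap70 row is a short transcript (NM_001289612, chr1:36778984-36782820, plus strand) that starts inside the gene. It covers 6 of the 13 exons of the longest GENCODE transcript and 53.8% of its exon bases, so the level reads the 3′ part of Zap70 only.

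Lat (NM_010689, chr7:126363828-126369568, minus strand), the membrane adaptor on which Zap70 acts, was at 424, 384 and 373 TPM in WT and at 480.3, 462, 488, 406 and 502 TPM in KO. KO replicate 4 fell below WT replicate 1 and the other 4 KO libraries lay above all WT libraries. Lat averaged 468 ± 37.3 TPM across KO and 394 ± 26.5 TPM across WT libraries (log2 fold change 0.25, SE 0.09, 95% interval 0.04 to 0.45, limma adjusted p = 0.269). Themis (NM_178666, chr10:28668360-28883818, plus strand) was the least abundant member, at 10.2, 10.5 and 9.49 TPM in WT and at 14.7, 8.50, 11.7, 15.4 and 9.54 TPM in KO. KO libraries spread more widely than WT libraries for Themis, with coefficients of variation of 25.5% and 5.18%, and the estimate was 0.20 on the log2 scale (SE 0.20, limma adjusted p = 0.714).

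The estimates of all 9 genes also lay above 0 with median ratio scaling, quantile scaling, voom and after genes at least 5 times higher in HFSC were left out and the rest rescaled. In the last of these their median was 0.13. The lower keratinocyte, macrophage and neutrophil markers in Treg KO stand beside this small upward shift, and the part of the macrophage and neutrophil RNA in it was not tested. The Treg markers did not share the shift: 0 of 6 had an estimate above 0 (median log2 fold change -0.29). Cd2, another T cell gene, was at -0.02. Direction was not fixed for 2 of the 9 genes: without WT replicate 1, Cd3e had a log2 fold change of -0.031 and Zap70 of -0.12. Single libraries also moved other estimates by over 1.5 times. Without WT replicate 1, Cd4 was at 0.094 and Lck at 0.081, and without WT replicate 3, Cd247 was at 0.080 and Cd4 at 0.23. Without WT replicate 2, Cd3e was at 0.17 and Zap70 at 0.22, and without WT replicate 3 Cd3e was at 0.19. Among KO libraries, leaving out replicate 1 gave 0.18 for Cd3e and 0.12 for Themis, replicate 2 gave 0.018 for Zap70 and 0.30 for Themis, and replicate 4 gave 0.069 for Cd3e and 0.10 for Themis. The estimates of Cd3g and Lat moved by less than 1.5 times with any 1 library left out. In bulk libraries, fewer cells of a type and less RNA per cell cannot be told apart.

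In order of mean level the members were Cd3g (1276 TPM), Cd3d (464), Lat (440), Cd4 (406), Lck (282), Cd247 (239), Cd3e (172), Zap70 (84.0) and Themis (11.2). Cd3g was above Cd3d in 8 of 8 Treg libraries, at 2.33 to 3.08 times its level. Cd3d, Lat and Cd4 were not separated by their spread, since Cd3d exceeded Lat in 6 of 8 libraries and Lat exceeded Cd4 in 6 of 8. Cd4 was above Lck in all 8, at 1.27 to 1.61 times its level. Lck and Cd247 had overlapping ranges, with Lck the higher in 7 of 8. Cd247 exceeded Cd3e, and Cd3e exceeded Zap70, in all 8 libraries.

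The CD3 genes did not stand at equal transcript levels in these cells. The ratio of Cd3g to Cd3e was 7.88 ± 1.35 in KO and 7.01 ± 2.34 in WT (SD, n = 5 and 3), and that of Cd3d to Cd3e was 2.83 ± 0.544 and 2.62 ± 0.919. The ratio of Cd247 to Cd3e was 1.43 ± 0.266 and 1.40 ± 0.357. Ranges of KO and WT overlapped for each of these ratios.

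Across the 8 Treg libraries the members fell into sets that varied together. Cd247 and Lat had a Pearson correlation of 0.90, Cd3g and Lat of 0.86, and Cd3d and Cd3g of 0.86. Cd3e instead varied with Lck (0.71), Zap70 (0.67) and Cd4 (0.58), and its correlations with Cd3g, Cd3d and Cd247 were -0.29, -0.35 and -0.37. Of the 36 pairs 24 were positive, with a median of 0.21. The points share 8 libraries, their depths and the difference between genotypes, and the values are a description with no test. The deposited transcripts of Cd3g, Lat, Cd3d and Cd247 are 1014 to 1676 bases long. Those of Cd3e, Zap70, Lck and Cd4 are 1426, 1335, 2101 and 3083 bases long. A part of transcript length in these sets was not tested.

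**Figure D3:**
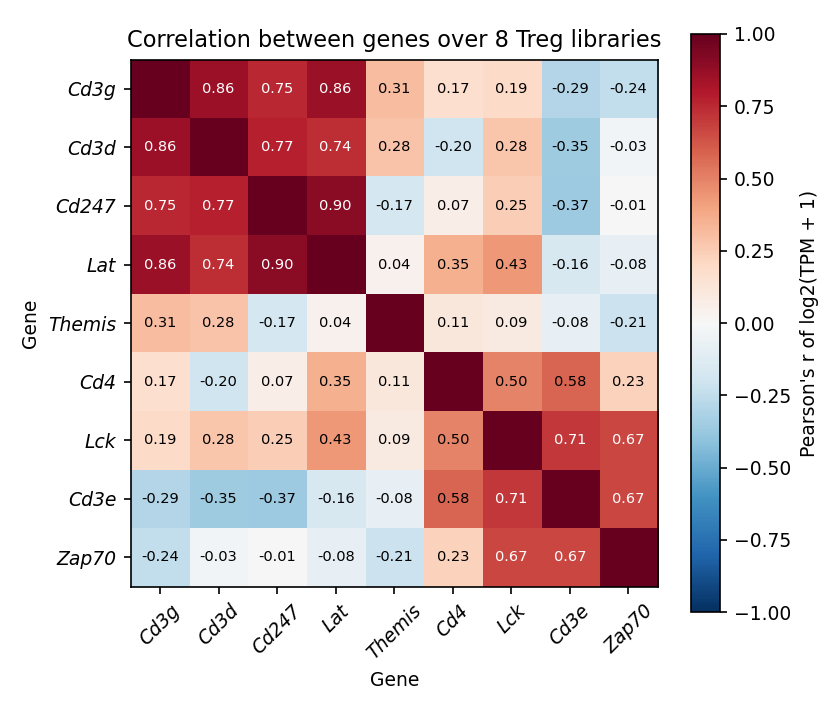
Pearson's r between the log2(TPM + 1) values of each pair of genes over the 8 Treg libraries, from -1 (blue) to 1 (red). Cd3g, Cd3d, Cd247 and Lat form a set with r from 0.74 to 0.90, and Cd3e has negative values with all 4 of them.

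Among 8591 other genes averaging 5 TPM or more, those closest to the mean log2 level of the 9 members over the 8 Treg libraries were Oaz1 (r = 0.98), its near-identical copy Oaz1-ps (0.98), Med28 (0.96), Reep5 (0.96), Psmd10 (0.95) and Mis18a (0.95). None of the 6 is a T cell receptor gene. Reads of Oaz1 and Oaz1-ps may be shared between their rows. Oaz1, which encodes an inhibitor of polyamine synthesis, averaged 75.1 ± 3.30 TPM across KO and 59.9 ± 7.76 TPM across WT libraries (limma adjusted p = 0.19). Reep5, an endoplasmic reticulum membrane protein gene, was the only one of the 6 that passed, rising from 112 ± 5.70 TPM to 215 ± 15.3 TPM in KO (limma adjusted p = 0.00113). The 6 genes and the members share the 8 libraries and the split by genotype, and no test was made.

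Further genes of the pathway gave 1 call. Of 20 other kinases, adaptors and effectors, limma called 0 (median log2 fold change -0.02, 3 at an unadjusted p under 0.05 against 14.1% of all genes, and 0 by voom). The cytoskeletal adaptor gene Fyb averaged 97.5 ± 20.2 TPM across KO and 135 ± 17.6 TPM across WT libraries (limma adjusted p = 0.215). Txk, a Tec family kinase gene, was at 11.2 ± 1.83 and 15.9 ± 1.88 TPM (limma adjusted p = 0.242), and was the only 1 of the 20 genes whose groups did not overlap, against 8.52% of all genes tested. Sos1, a Ras exchange factor gene, was at 4.03 ± 1.49 and 6.91 ± 2.06 TPM, and Grap2, which encodes an adaptor that links Lat to Lcp2, at 61.8 ± 8.79 and 72.8 ± 6.61 TPM (limma adjusted p = 0.309 and 0.433).

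Of 19 genes listed as restraining receptor signalling 1 fell and 0 rose, with a median log2 fold change of 0.03, and 1.31% of all genes tested fell. The list counts Ptprc, which is not only a brake. Ptpn22, which encodes a phosphatase that acts on Lck and Zap70, ranged from 173 to 235 TPM in WT and from 108 to 152 TPM in KO. It fell from 196 ± 34.0 TPM in WT to 125 ± 17.5 TPM in KO (SD, n = 3 and 5, log2 fold change -0.63, SE 0.14, limma adjusted p = 0.047, and 0.0212 to 0.123 over the alternatives). The groups did not overlap, but the call was lost without any 1 of WT replicates 1, 2 and 3 or KO replicates 1, 2, 3 and 5. It was also lost with a pseudocount of 0.1, with no filter on low values and after genes higher in HFSC were left out (log2 fold change -0.66). With the replicate number as a block the call was lost too (log2 fold change -0.69, limma adjusted p = 0.116). Macrophage and neutrophil markers, given above, were also lower in KO, and their part in the Ptpn22 difference was not tested. Dok2, an adaptor gene that dampens Ras signalling, averaged 161 ± 12.3 TPM across KO and 110.1 ± 20.2 TPM across WT libraries, with no overlap, and did not pass (log2 fold change 0.56, limma adjusted p = 0.0558, and 0.0188 to 0.176 over the alternatives). Sit1, which encodes a transmembrane adaptor, was at 169.8 ± 35.5 and 116 ± 11.9 TPM (limma adjusted p = 0.169), and Dok1 at 14.6 ± 4.05 and 10.2 ± 2.28 TPM (adjusted p = 0.384). The groups did not overlap for 4 of the 19 genes, against 8.52% of all genes tested, the fourth being Csk, which encodes a kinase that inhibits Lck (95.8 ± 7.30 and 84.0 ± 5.23 TPM, adjusted p = 0.423, named after its values were seen).

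Genes that receptor signalling induces gave no call in 12 tested by limma, where 1.51% of all genes tested were called. An unadjusted limma p under 0.05 was reached by 0 of the 12, against 14.1% of all genes tested. Voom called 0 of them, and their median log2 fold change was -0.08. Nr4a1, an orphan nuclear receptor gene often read as a reporter of receptor signalling, averaged 1215 ± 189 TPM across KO and 997 ± 242 TPM across WT libraries (limma adjusted p = 0.468). Irf4, a transcription factor gene of effector Treg cells, was at 102 ± 19.2 and 128 ± 21.1 TPM, Egr3 at 7.24 ± 1.17 and 5.04 ± 2.07 TPM, and Nfatc1 at 24.7 ± 4.12 and 31.1 ± 8.31 TPM (adjusted p = 0.384, 0.403 and 0.516).

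**Figure D4:**
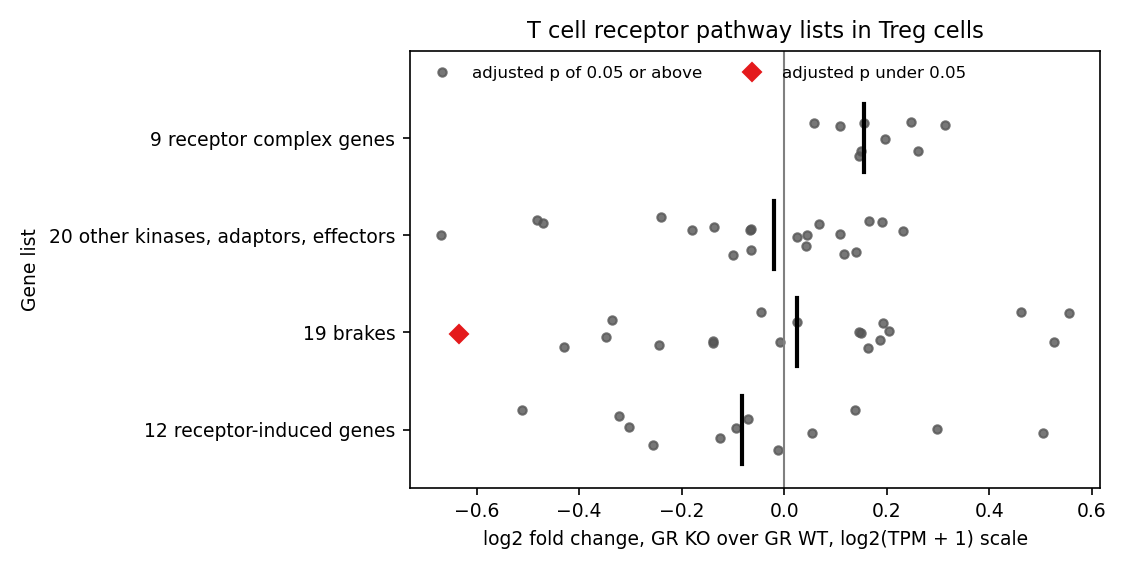
Log2 fold change in Treg cells, GR KO over GR WT, of every gene of the 9 members and of the 3 pathway lists. Each point is a gene, its vertical position within a list is arbitrary, and the black bar is the list's median. The single red diamond is Ptpn22 at -0.63, and the medians are 0.16, -0.02, 0.03 and -0.08 from top to bottom.

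Of 6 Treg markers 1 fell, where 1.31% of all genes tested fell. This was Il2ra, which encodes the interleukin-2 receptor alpha chain, from 485 ± 33.4 TPM in WT to 330.1 ± 10.95 TPM in KO (log2 fold change -0.55, limma adjusted p = 0.00575, and 0.00501 to 0.116 over the alternatives). All 6 estimates lay below 0, from -0.55 to -0.09, with a median of -0.29 against -0.04 for all genes tested. An unadjusted limma p under 0.05 was reached by 2 of the 6, against 14.1% of all genes. CD8 and B cell markers were low beside Cd4 in Treg libraries. The T cell receptor constant genes Trac, Trbc1, Trbc2, Trdc, Tcrg-C1 and Tcrg-C2 had no row, so gamma-delta T cells could not be assessed through them. Cd8a and Cd8b1, the CD8 coreceptor genes, averaged 1.06 and 13.7 TPM against 406 TPM for Cd4 and 11.2 TPM for Themis, the lowest member, and neither passed (limma adjusted p = 0.571 and 0.535). Of 5 B cell genes, 4 averaged under 1 TPM in both groups, and Cd79b averaged 10.2 ± 2.92 TPM across KO and 10.6 ± 4.12 TPM across WT libraries. Cd2, a T cell adhesion gene, was at 2258 ± 142 and 2282 ± 142 TPM (adjusted p = 0.96). Of 8 myeloid counterparts of the receptor kinases and adaptors, 4 were tested and 2 fell, against 1.31% of all genes tested. These were the signalling adaptor genes Tyrobp (18.2 ± 5.69 TPM across KO and 48.4 ± 11.5 TPM across WT libraries, limma adjusted p = 0.0211, and 0.017 to 0.121 over the alternatives) and Fcer1g (19.3 ± 7.39 and 65.3 ± 29.0 TPM, adjusted p = 0.0371, and 0.0108 to 0.177 over the alternatives). Both calls were lost without WT replicate 1 and without WT replicate 3. Syk, the relative of Zap70 in B and myeloid cells, averaged 0.491 TPM in KO and 1.41 TPM in WT and was under the minimum for a test (named after its values were seen).

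In HFSC the transcripts of the receptor complex were at or near the counting limit, except for Lck. The 8 members other than Lck summed to 0.903 to 2.74 TPM per HFSC library, or 0.056% of their summed Treg mean. They gave 8 to 18 tags per library, against 31240 to 52751 tags per Treg library. Levels in the 2 tables are set side by side as a description, because the tables were made separately. A count of 3 tags, the upper limit that a count of 0 allows if tags are independent, corresponds to 0.121 to 1.02 TPM here. The value depends on the transcript and library and covers counting error only. Mates may have been counted separately, and this limit would then be too low.

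**Figure D5:**
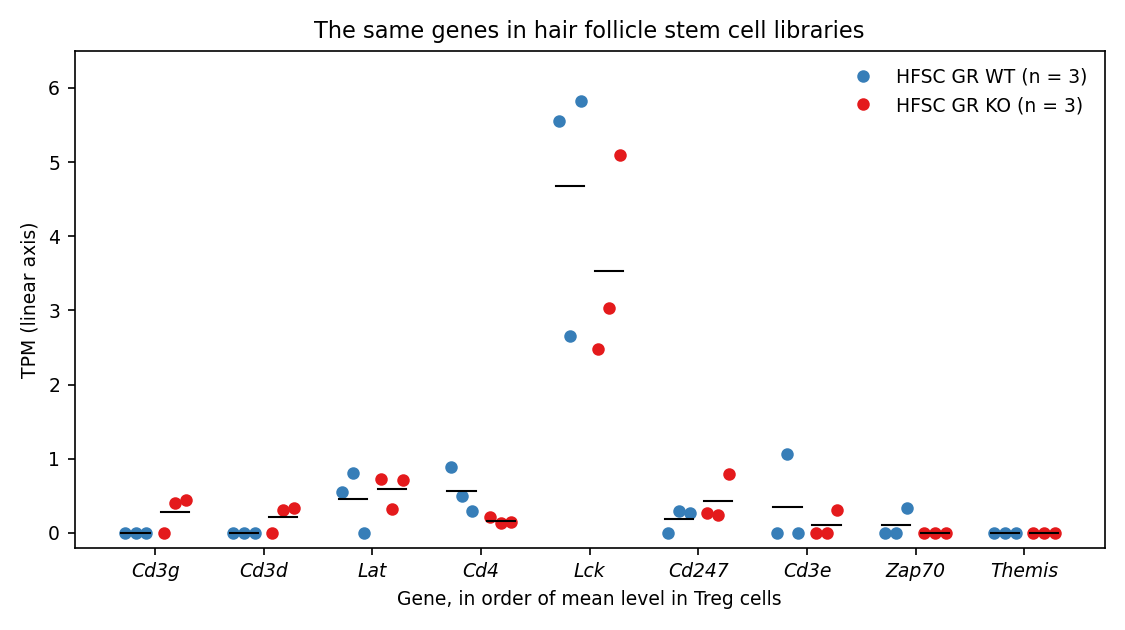
TPM of the same 9 genes in each HFSC library on a linear axis, with GR WT (n = 3) in blue, GR KO (n = 3) in red and a line at each mean. Lck lies between 2.48 and 5.82 TPM in all 6 libraries, and no other gene exceeds 1.07 TPM in any of them.

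Cd3g and Cd3d were at 0 in the 3 WT libraries and KO replicate 1, and had 2 tags each in KO replicates 2 and 3 (0.405 and 0.44 TPM for Cd3g, 0.31 and 0.337 TPM for Cd3d). Cd3e had 6 tags in WT replicate 2 (1.07 TPM) and 2 in KO replicate 3 (0.313 TPM) and was at 0 in the other 4 libraries. Cd247 was at 0, 0.303 and 0.27 TPM in WT and 0.27, 0.245 and 0.798 TPM in KO, with at most 6 tags. Lat was at 0.548, 0.81 and 0 TPM in WT and 0.722, 0.328 and 0.711 TPM in KO. Zap70 had 2 tags in WT replicate 3 only, and Themis was at 0 in all 6 libraries.

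Cd4 was the only one of these 8 with a tag in every HFSC library. It stood at 0.891, 0.494 and 0.294 TPM in WT (8, 6 and 4 tags) and at 0.22, 0.133 and 0.145 TPM in KO (3, 2 and 2 tags). All WT values lay above all KO values, but the gene was under the minimum of 1 TPM and was not tested. Of the genes tested in HFSC, 12.8% had no overlap and were lower in KO. Macrophage and monocyte markers summed to 3.29 to 20.8 TPM in HFSC WT and 5.20 to 7.17 TPM in KO, with the highest library in WT. Their part in the Cd4 values was not tested.

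Lck was at 5.56, 2.66 and 5.82 TPM in HFSC WT and at 2.48, 3.03 and 5.10 TPM in HFSC KO. These values rest on 34, 22 and 54 tags in WT and 23, 31 and 48 tags in KO, more than the other 8 members together in each of the 6 libraries. Its mean of 4.11 TPM was 1.46% of the Treg mean, while Cd3e, the next member, reached 0.134%, Cd247 0.131% and Cd3g 0.011%. It was the only member tested in HFSC, and it did not pass (log2 fold change -0.31, SE 0.34, 95% interval -1.09 to 0.47, limma adjusted p = 0.686, and 0.176% of 12493 genes were called). KO and WT libraries overlapped. Its unadjusted p was not under 0.05, which 16.6% of the genes tested reached, and voom did not call it either.

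Other T cell genes in HFSC ranged from 0 to shares above that of Lck. Relative to Treg cells, Cd2 was at 0.00737%, Ptprc, the leukocyte phosphatase gene CD45, at 0.0331%, Foxp3 at 0.0615% and Lcp2 at 0.0764%, and Trat1, Txk, Cd8a and Cd8b1 were at 0 in all 6 libraries. Cd5, a receptor that restrains T cell receptor signalling, stood at 0.358% on 73 tags. Of the other Treg markers, Ctla4 stood at 0.0146%, Il2ra at 0.0852%, Tnfrsf4 at 0.743%, Ikzf2 at 4.62% and Tnfrsf18 at 5.94%. Prkcq and Rasgrp1, a kinase and a Ras exchange factor gene downstream of Lat, stood at 3.13% and 2.11%, on 156 and 445 tags in all. Genes of the pathway that many cell types use were abundant in HFSC, among them Plcg1 at 45.9 TPM and Grb2 at 37.5 TPM on average. So were genes that receptor signalling induces in T cells and other signals induce elsewhere, such as Nr4a1 at 1391 TPM and Egr1 at 2079 TPM. The genes of this paragraph were chosen after their values were seen.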

How the data were processed

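RNA of sorted cells was made into stranded mRNA libraries, per the labels' protocols. FastQC, Trim Galore, STAR, HOMER and build mm10 are named in the submitters' processing notes. Neither versions nor counting settings were given in the sources used here. The authors deposited TPM values in a table for each cell type, with 1 RefSeq transcript and its length for every gene symbol, per the file headers. A stray quotation mark was removed from symbols. Groups and replicate numbers came from the sample titles. The HFSC columns, whose names start with letters not found in the labels, were matched through genotype and replicate number.

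Multiplying TPM by length gave whole tags, within 0.1 tag, for 100% of the low values of every library. Even numbers made up 68.6% to 77.3% of tag counts, so mates may have been counted separately and tags do not stand for independent molecules. Each table was fitted by itself with limma (version 3.58.1, R version 4.3.3) on log2(TPM + 1), over the genes averaging 1 TPM or more, using a trended prior and Benjamini-Hochberg adjustment over all genes tested, two-sided, at 0.05. Fold changes on this scale understate the change of genes near 1 TPM. The fit was also run on simulated data, and the outcome is not reported here. The members and lists were chosen with earlier results of these data known. Of 140 list entries 6 had no row, all of them T cell receptor constant genes.

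All members are named, with the called genes of each pathway list and otherwise the 4 with the smallest p, up to 4 genes of a marker list, and the 6 genes closest to the members' mean. Any other gene is marked in the text. A planned search for tyrosine motifs in the receptor proteins was not made. Alternatives covered the pseudocount, the low-value filter, scaling, voom, the prior, each replicate left out, and the replicate number as a block.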

Additional observations from a re-analysis of the deposited data

How the results depend on the processing

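No member was called in Treg cells under any of the 18 alternatives (162 values, lowest adjusted p = 0.0605 for Cd3g without WT replicate 1), and 160 of them kept their direction. The exceptions were Cd3e (-0.031) and Zap70 (-0.12) without WT replicate 1, the lowest of their ranges with 1 library left out (-0.031 to 0.19 and -0.12 to 0.22). The members' median ranged from 0.15 to 0.22 with 1 library left out and from 0.12 to 0.21 under the other alternatives. Lck was not called in HFSC under any alternative that tested it (-0.60 to -0.14 with 1 library left out), and with a minimum mean of 5 TPM no member was left to test there. Its HFSC level was 1.34% to 1.57% of the Treg level with 1 library left out and 1.5% with TPM rescaled to the same sum. That of the 8 others was 0.0495% to 0.0614%, and 0.0577% rescaled.

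The 175 genes called in Treg cells became 84 to 186 with 1 library left out (107 without WT replicate 1, 84 without WT replicate 3), 87 without genes higher in HFSC and 78 with the replicate block. The 22 called in HFSC became 0 to 5 with 1 library left out, 2 with no filter on low values, 48 with a minimum mean of 5 TPM, 69 with median ratio scaling, 58 with quantile scaling, 483 with voom, 51 with a robust prior and 66 with the replicate block. Of the HFSC calls 18 of 22 were higher in KO, and 240 of 483 with voom. The cause was not tested.

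The 1 call in the pathway lists became 0 with a pseudocount of 0.1, with no filter, without genes higher in HFSC and with the replicate block, and 2 with median ratio scaling, voom and a robust prior, where Dok2 passed. It became 0 to 1 with 1 library left out, and Dok2 passed in place of Ptpn22 without WT replicate 3. The 15 calls in the marker lists became 8 with no filter, 8 with a robust prior, 8 with the replicate block, 9 without genes higher in HFSC and 3 to 14 with 1 library left out (3 without WT replicate 1 and 3 without WT replicate 3). Alternatives for the marker lists, and 9 of 18 for the pathway lists, were added after seeing the data.

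Whether the replicate numbers pair the samples could not be decided. The check correlated deviations from the group means, which sum to 0 within a group, so its values are tied together. Same-numbered KO and WT libraries correlated at 0.17, 0.0873 and -0.117 in Treg cells and at 0.0156, 0.0619 and -0.042 in HFSC, and not every library correlated best with its own number. In the block fit, Treg KO replicates 4 and 5 have no WT partner and do not inform the difference. With the block, 0 members were called in both tables and the Treg median was 0.16. Ptpn22 and Il2ra were not called with the block (adjusted p = 0.116 for both). In HFSC, depth limits the members other than Lck, most of which had 3 tags or fewer per library.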
